A study of Capsicum annuum and Solanum lycopersicum with 125 samples.

Results

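The ageing of the ungrafted tomato stem was followed over the interval in which grafted plants of the same experiment healed or failed. The members are the 13 libraries labelled as ungrafted tomato stem, out of 61 tomato libraries and 125 libraries of tomato and pepper in all. They were chosen by label alone and comprise 4 libraries at 7 days after grafting (DAG), 5 at 14 DAG and 4 at 21 DAG. These plants were never cut. DAG counts from the day on which their counterparts were grafted, when tomato seedlings were 14 days old. All plants were of the tomato variety M82, grown at 16 h of light and 8 h of dark. Ungrafted plants passed through the recovery procedure of the grafts, which for grafted plants began with 3 days in the dark under plastic domes, and the domes were vented at 7 DAG and taken off at 14 DAG. A piece of stem of 0.5 cm was taken from each plant, so every age is a different set of plants. Age, day of harvest and the state of the domes therefore moved together and cannot be told apart.

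A young tomato internode first lengthens, with cells that divide, expand and loosen their primary walls. As it ages, elongation ends, the vascular cambium adds xylem and phloem, and the walls of the new xylem cells thicken and lignify before the cells die as conduits. A stem that ages without a wound is the background against which the healing of a graft is read. A whole piece of stem was sequenced, so fewer cells of one type and less RNA per cell cannot be told apart in any value given here. The tomato identifiers are not paired with gene names in the sources used here, apart from 6 genes that the study names in its text. The labelled tissue could therefore not be checked against cell type markers, and the ageing genes are described by their sets, their course over time and their behaviour in other tissues.

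The libraries held between 1100645 and 1771240 counts at 7 DAG, between 1389700 and 2506444 at 14 DAG and between 1412108 and 2232064 at 21 DAG. Counts were scaled by TMM, a method that corrects library totals for composition, and levels are given as CPM, the counts of a gene per 1000000 counts of the scaled library. Of 34688 genes, 12176 passed a filter on low counts and were tested. Age ordered the libraries along the first principal component, with 30.8% of the variance. Scores ran between -116.3 and -38.85 at 7 DAG, between -24.59 and 15.64 at 14 DAG and between 24.47 and 101.6 at 21 DAG, without overlap. The second component, with 17.4%, set apart replicate 3 at 7 DAG, replicates 4 and 5 at 14 DAG and replicate 5 at 21 DAG. These had fewer genes with counts than the other libraries of their ages, and also the smallest totals. The totals were 1100645 counts at 7 DAG, 1618130 and 1389700 at 14 DAG and 1412108 at 21 DAG. Whether depth set these libraries apart was not tested. Replicate 5 at 21 DAG stood farthest from its age, with a median rank correlation of 0.807 to the others, against 0.885 to 0.900 for those. Between libraries of one age the rank correlation had a median of 0.852 at 21 DAG and 0.875 at 7 DAG, against 0.668 between 21 and 7 DAG. These correlations run across genes, which are not independent replicates.

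**Figure D1:**
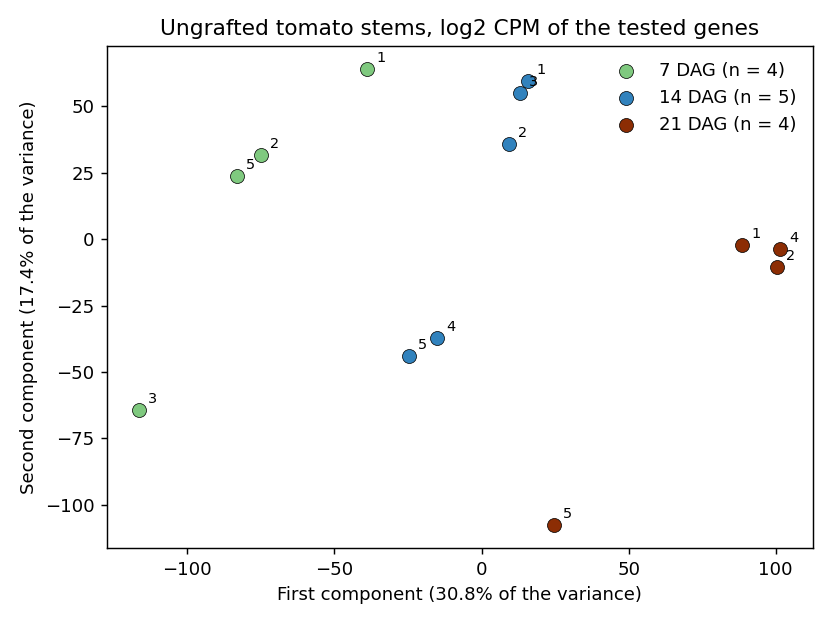
Principal components of log2 CPM of the 12176 tested genes in the 13 ungrafted stem libraries, with 1 point per library, colour for age and the replicate number beside the point. The ages follow each other from left to right without overlap, and 4 libraries (replicate 3 at 7 DAG, replicates 4 and 5 at 14 DAG, replicate 5 at 21 DAG) lie low on the second axis.

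The stem of 21 DAG differed from that of 7 DAG in a large part of its transcriptome. By edgeR's quasi-likelihood test, 832 genes were higher and 890 genes lower at 21 DAG, with a Benjamini-Hochberg adjusted p under 0.05 and a change of more than 1.5 log2 units. These are 6.83% and 7.31% of the genes tested, or 14.1% together. Without the fold threshold, 1947 genes were higher and 1869 lower. All genes tested had a median log2 fold change of 0.12, a value that the scaling keeps small. It does not show how far the typical gene moved. Fitted log2 fold changes had a median of 2.69 in the higher set and -2.49 in the lower set. In 192 genes of the higher set every 7 DAG library held 3 counts or fewer, and in 81 genes of the lower set every 21 DAG library did. With these set at a floor of 3 counts per library the medians became 2.35 and -2.44. At that floor 548 of the higher and 618 of the lower genes had changed more than 2 log2 units. In 659 genes of the higher set and 837 of the lower set the CPM of the 21 DAG and 7 DAG libraries did not overlap, which held for 35.2% of all genes tested. Without the 4 libraries low on the second component, the shallowest of their ages, 961 genes were higher and 1150 lower. This check was added after the data were seen.

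**Figure D2:**
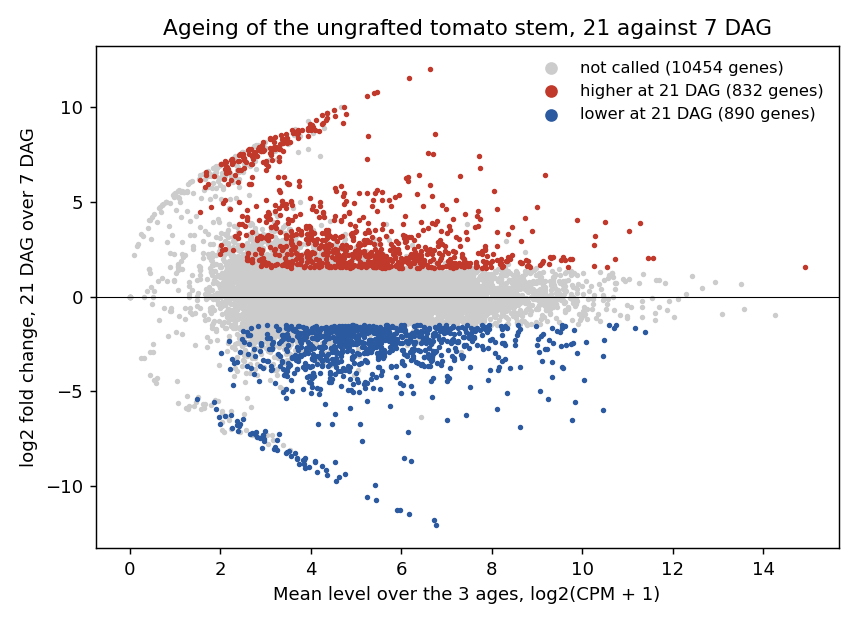
Each point is 1 of the 12176 tested genes, with its mean level over the 3 ages on the horizontal axis, as log2(CPM + 1), and its fitted log2 fold change, 21 DAG over 7 DAG, on the vertical axis. The 832 genes called higher are in red and the 890 called lower in blue, and the bands that curve away from 0 at low levels are genes with almost no counts at one of the ages, whose fitted fold changes have no fixed size.

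These sets made up a large share of the RNA. The higher set held 19.1%, 18.4%, 18.4% and 14.3% of all counts in the 4 libraries of 21 DAG, against 3.78%, 4.03%, 4.72% and 4.20% in the 4 libraries of 7 DAG. The lowest value at 21 DAG was replicate 5. The lower set held 2.56%, 2.25%, 2.2% and 3.28% of the counts at 21 DAG, against 14.6%, 14.8%, 14.3% and 15.1% at 7 DAG. The stems of 14 DAG lay between, with 7.73% to 10.7% in the higher set and 7.92% to 9.78% in the lower set. The genes were chosen on these libraries, so the shares describe the sets and carry no test. The higher set was carried by few genes, since 18 of its 832 members held 50% of its counts at 21 DAG. In the lower set it took 59 of 890 genes to hold 50% of the counts at 7 DAG.

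On the log2 scale, the losses and the gains followed different timing. Between 7 and 14 DAG, 141 genes were higher and 67 lower at 14 DAG (1.16% and 0.55% of those tested, 1.71% together). Between 14 and 21 DAG, 159 genes were higher and 451 lower at 21 DAG (1.31% and 3.7%, 5.01% together). These comparisons share the 14 DAG libraries. In the higher set, 121 of 832 genes were also called higher at 14 DAG over 7 DAG and 128 were called higher at 21 DAG over 14 DAG, while 593 were called in neither step. Of the lower set, 49 of 890 genes were called in the first step and 413 in the second, and 453 in neither. Leaving out replicate 2 or replicate 5 of 7 DAG reduced the 141 genes of the first step to 90 and 81.

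The size of the steps can be read in genes with more than 3 counts in some library of every age. Other libraries of an age could still hold 3 counts or fewer. For 639 such genes of the higher set, the median log2 fold change was 1.29 for 14 DAG over 7 DAG and 1.03 for 21 DAG over 14 DAG, and a median of 53.9% of the total change had been reached by 14 DAG. For 809 such genes of the lower set, the medians were -0.70 and -1.66, and 29.2% of the change had been reached by 14 DAG. On the log2 scale the gains were thus spread over both weeks and the losses fell mainly in the later week. Shares of counts gave another order. The higher set had medians of 4.11%, 9.16% and 18.4% at 7, 14 and 21 DAG, and the lower set 14.7%, 8.89% and 2.40%. In shares, the lower set fell in both weeks and the higher set rose more in the later week. A test of the difference between the steps of each gene, added after the data were seen, called 161 genes (1.32% of those tested). In the lower set it called 69 genes with the larger log2 fall in the second week and 2 with the larger one in the first. In the higher set, 13 genes had the larger log2 rise in the first week and 4 in the second.

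**Figure D3:**
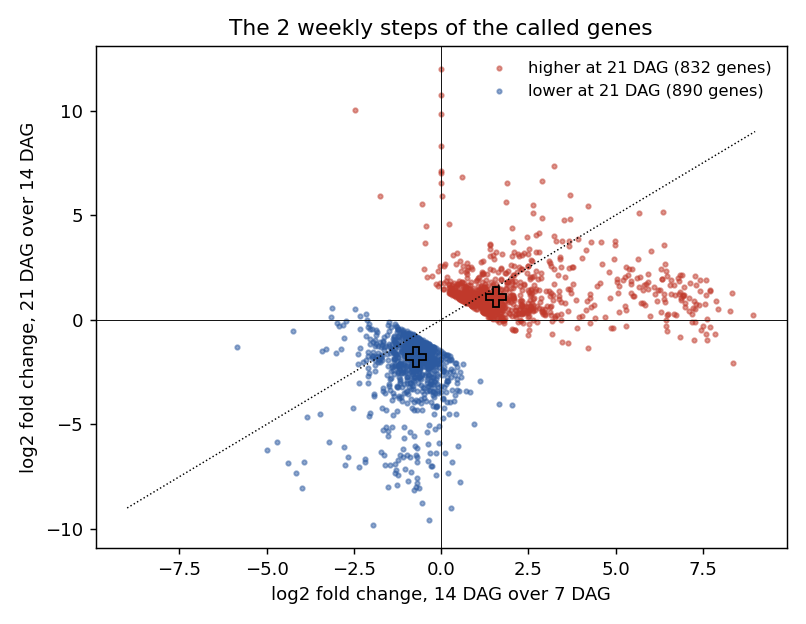
Fitted log2 fold changes of the called genes, 14 DAG over 7 DAG on the horizontal axis and 21 DAG over 14 DAG on the vertical axis, for the 832 genes higher (red) and 890 lower (blue) at 21 DAG. The crosses are the medians of each whole set. They lie at 1.59 and 1.11 for the higher set and at -0.72 and -1.76 for the lower set. The dotted line marks equal steps, and most of the lower set lies below it, with the larger log2 fall in the second week.

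In most ageing genes the mean at 14 DAG lay between those at 7 and 21 DAG. A test for any difference among the 3 ages passed 3196 genes (26.2% of those tested, at an adjusted p under 0.05 and no fold threshold). Mean levels of 1288 of them (40.3%) followed the order 7, 14, 21 DAG upwards and those of 1340 (41.9%) downwards. A mean highest at 14 DAG was found in 362 genes (11.3%) and a mean lowest at 14 DAG in 206 (6.45%). Among all genes tested, 34% went steadily up, 27.6% steadily down, 22.1% were highest and 16.3% lowest at 14 DAG. Of the genes called in both successive steps, 13 were called in opposite directions, 10 were higher in both and 25 lower in both. Spread between plants was similar at the 3 ages, with a common biological coefficient of variation of 0.573 at 7 DAG, 0.475 at 14 DAG and 0.562 at 21 DAG.

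Some genes were lost from or first seen in the ageing stem. In 69 genes with a mean of at least 10 CPM at 7 DAG, every 21 DAG library held 3 counts or fewer, and 56 of these were called lower. In 166 genes with a mean of at least 10 CPM at 21 DAG, every 7 DAG library held 3 counts or fewer, and 137 of these were called higher. At 14 DAG, 17 of the 69 lost genes and 29 of the 166 gained genes were above 3 counts in all 5 libraries. The 7 DAG libraries were the shallowest as a group, and their floor of 3 counts lay at 2.19 CPM on average, against 1.75 CPM at 21 DAG. The floor covers counting error only, and reads of a library without molecular identifiers are not independent molecules.

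The genes with the largest fitted changes show both courses by library. They were the 2 that rose most and the 2 that fell most among called genes whose libraries of 21 and 7 DAG did not overlap and whose mean reached 10 CPM at one of these ages. Solyc11g044910 had 0 counts in all 4 libraries at 7 DAG, 6.84, 6.35, 13.9, 0 and 0 CPM at 14 DAG, and 202.3, 255.7, 309.1 and 61.8 CPM at 21 DAG. It was at least 94.8-fold higher at 21 DAG than the floor at 7 DAG (adjusted p = 0.000632, edgeR). The 2 libraries without counts at 14 DAG were both among those low on the second component, and were the shallowest of that age. Solyc05g015300 likewise had 0 counts at 7 DAG, then 11.8, 4.23, 0, 0 and 0 CPM at 14 DAG and 250.4, 25.5, 179.6 and 54.3 CPM at 21 DAG. Its rise was at least 58.3-fold (adjusted p = 0.00359), with a wide spread among the 21 DAG plants.

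Solyc09g091510 had 359.8, 381.3, 164.0 and 318.9 CPM at 7 DAG, between 0 and 30.8 CPM at 14 DAG and 0 counts in all 4 libraries at 21 DAG. It was at least 175-fold lower at 21 DAG than at 7 DAG (adjusted p = 0.000324, edgeR). In CPM, most of the loss was complete at 14 DAG. Solyc05g053550 had 232.3, 340.6, 207.9 and 222.1 CPM at 7 DAG, then 82.1, 100.8, 54.8, 32.5 and 55.0 CPM at 14 DAG and 0 counts at 21 DAG. Its fall was at least 143-fold (adjusted p = 7.44e-06), and no library of one age overlapped with another age. Neither of these genes, nor either of the risers, has a product named in the sources used here.

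**Figure D4:**
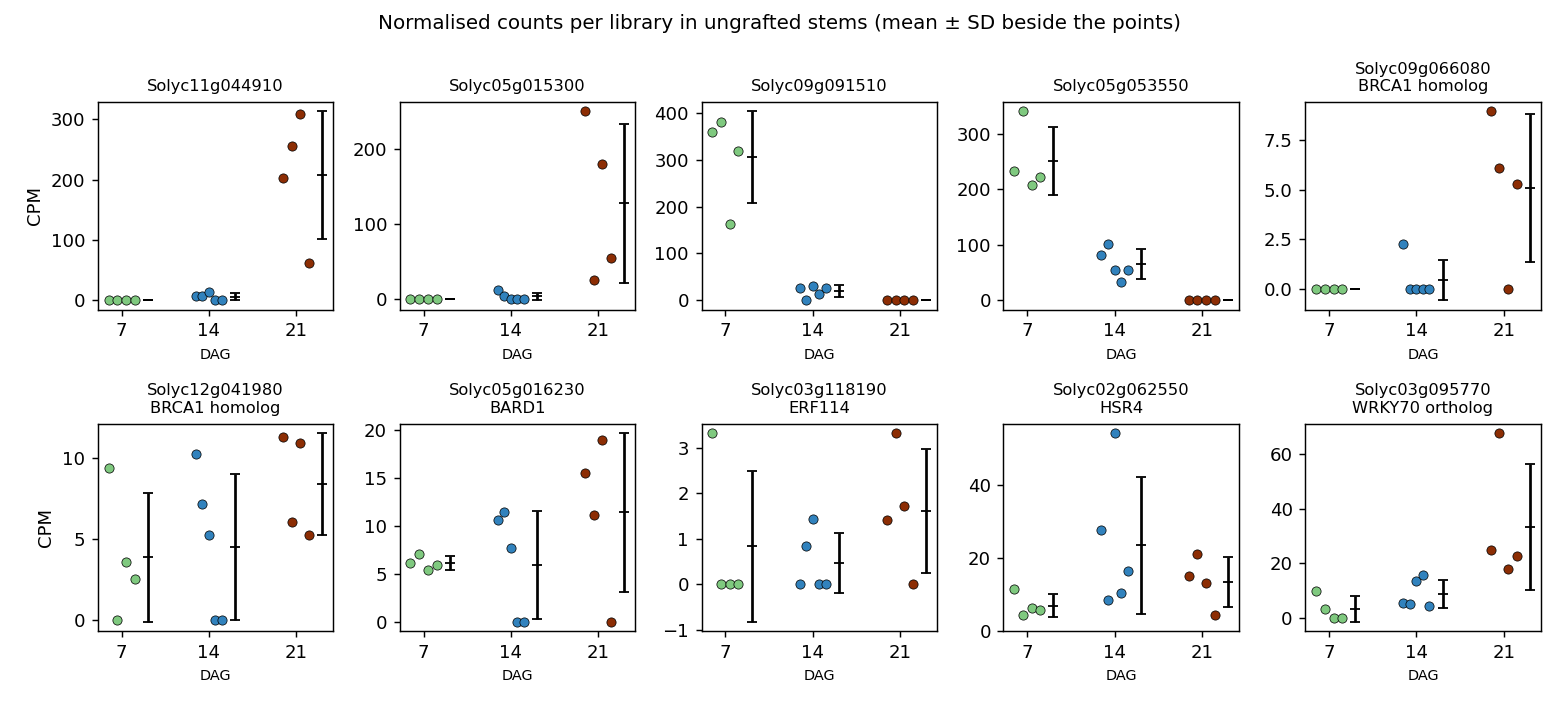
CPM of each ungrafted stem library by age for the 4 genes with the largest fitted changes and the 6 genes that the study names by identifier, each on its own linear axis, with mean ± SD beside the points (n = 4, 5 and 4). Solyc11g044910 and Solyc05g015300 are at 0 at 7 DAG and Solyc09g091510 and Solyc05g053550 at 0 at 21 DAG, while of the other 6 genes the WRKY70 ortholog alone is higher in every 21 DAG library than in every 7 DAG library.

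The 6 genes named in the text of the study were read next. Solyc03g095770 is the putative ortholog of WRKY70, in Arabidopsis a transcription factor of the salicylic acid response and of leaf senescence. It had 24.99, 67.7, 17.8 and 22.6 CPM at 21 DAG, against 9.98, 3.23, 0 and 0 CPM at 7 DAG. The groups did not overlap, and the stems of 14 DAG had 5.70, 5.08, 13.5, 15.6 and 4.34 CPM. It rose by 3.21 ± 0.95 on the log2 scale (SE, adjusted p = 0.0219, edgeR). The call depended on single libraries although the fold change stayed large. Without replicate 2 of 21 DAG the log2 fold change was 2.66 (adjusted p = 0.0783, edgeR), and without replicate 2 of 7 DAG it was 3.17 (adjusted p = 0.0543). Without replicate 1 of 7 DAG it was 4.73 (adjusted p = 0.00582).

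The other named genes were expressed at low levels in the stem, and none of the 4 that were tested passed between 21 and 7 DAG. HSR4 (Solyc02g062550) is counted with the genes of cell death in the study. It had 15.1, 21.1, 13.2 and 4.53 CPM at 21 DAG, against 11.6, 4.52, 6.27 and 5.89 CPM at 7 DAG. Its log2 fold change was 0.92 ± 0.63 (SE, adjusted p = 0.300, edgeR), and it varied most between plants of 14 DAG, where it ran from 8.47 to 54.3 CPM. ERF114 (Solyc03g118190), a transcription factor of the ethylene response factor family, was near the limit of detection in every ungrafted stem, with 0 to 3.33 CPM at 21 DAG and 0 to 3.33 CPM at 7 DAG and no more than 6 counts in any of the 13 libraries.

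BRCA1 and BARD1 are partner proteins that in animals act in the repair of DNA breaks by homologous recombination. BARD1 (Solyc05g016230) had 15.6, 11.1, 19.0 and 0 CPM at 21 DAG, against 6.10, 7.11, 5.38 and 5.89 CPM at 7 DAG. The log2 fold change was 0.90 ± 1.21 (SE, adjusted p = 0.627, edgeR). Replicate 5 of 21 DAG, which stands apart and is the shallowest library of its age, held the 0. Without the 4 libraries low on the second component the log2 fold change was 1.24, with an adjusted p of 0.0275 by edgeR but below the fold threshold, and without replicate 5 of 21 DAG alone it was 1.29 (adjusted p = 0.386, edgeR). The BRCA1 homolog Solyc12g041980 had 11.3, 6.10, 10.9 and 5.28 CPM at 21 DAG, against 9.42, 0, 3.59 and 2.52 CPM at 7 DAG, with a log2 fold change of 1.09 ± 1.23 (SE, adjusted p = 0.552, edgeR). The other BRCA1 homolog, Solyc09g066080, was not tested since it failed the filter. It had 19, 11, 0 and 7 counts at 21 DAG and 0 counts in each library of 7 DAG, where the floor of 3 counts lay at 1.65 to 2.67 CPM.

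Ageing genes were found at all levels of expression and on all chromosomes. With the tested genes divided into 4 bins of equal size by mean level, 7.56% were higher and 3.91% lower at 21 DAG in the lowest bin, and 7.52% and 9.33% in the highest. The identifiers carry the chromosome number, and over the 12 numbered chromosomes between 10.5% (chromosome 11) and 16.1% (chromosome 2) of tested genes were called. On chromosome 2 the excess was in the lower genes, 123 of 1293 (9.51%), and on chromosome 11 they were fewest, 35 of 743 (4.71%). Ordered by identifier, 23.2% of the higher genes had another higher gene as next tested neighbour, against 13.1% of all tested genes, and 19.1% of the lower genes had a lower neighbour, against 14.1% of all. There were 13 runs of at least 3 higher genes and 9 runs of at least 3 lower genes, the longest of 5 genes each. Neighbours can be near-identical copies, between which the counting may have split reads, so single members of such runs are uncertain.

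The same interval was then read in plants whose libraries are not those of the ungrafted stem. Self-grafted tomato scions (the shoot part, 4 libraries at 21 DAG and 4 at 7 DAG) and self-grafted stocks (the rooted part, 5 and 3 libraries) are stem pieces of the same variety and harvest days that also healed a wound. In self-grafted scions, fitted on their own, 434 of the 832 genes higher in the ageing stem were called higher at 21 DAG (52.2%), against 7.82% of all genes tested there. Of the 890 lower genes, 619 were called lower (69.6%), against 9.11% of all. Stocks gave 433 of the higher genes (52.0%, against 7.12% of all) and 768 of the lower genes (86.3%, against 12.3% of all). Of the lower set 98.1% of the genes had a negative fold change in scions and 99.3% in stocks. Of the higher set 88.8% had a positive one in scions and 89.4% in stocks.

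The shares of counts in self-grafts moved in the same directions as those of the stem. The higher set held 16.6% to 20.3% of the counts in scions and 16.9% to 21.1% in stocks of 21 DAG, against 4.93% to 6.69% in scions and 4.30% to 6.31% in stocks of 7 DAG. The lower set held 1.83% to 3.03% in scions and 1.30% to 2.71% in stocks of 21 DAG, against 10.2% to 12.8% and 11.2% to 14.5% at 7 DAG. No library of 21 DAG overlapped with one of 7 DAG in these 4 readings. Ungrafted stems of 7 DAG held 3.78% to 4.72% in the higher set and 14.3% to 15.1% in the lower set. Self-grafted scions of 7 DAG did not overlap with these ranges, while stocks did. The sets were chosen on these ungrafted libraries, so this comparison is in part fixed by the choice and carries no test. The later timing of the losses on the log2 scale was also seen in self-grafts, among genes with more than 3 counts in some library of every age. The lower set had a median log2 fold change of -0.74 for 14 DAG over 7 DAG and -1.46 for 21 DAG over 14 DAG in scions, and of -0.67 and -1.86 in stocks. For the higher set these medians were 0.84 and 0.89 in scions and 0.59 and 1.01 in stocks. Of the 69 genes lost from the stem, 21 in scions and 34 in stocks held 3 counts or fewer in every 21 DAG library, against 1.28% and 1.31% of all genes tested. Only 32 of the 69 in scions and 56 in stocks were above 3 counts in every 7 DAG library. Of the 166 genes gained in the stem, 22 in scions and 19 in stocks held 3 counts or fewer in every 7 DAG library. The shares of all genes tested were 0.928% and 0.641%.

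**Figure D5:**
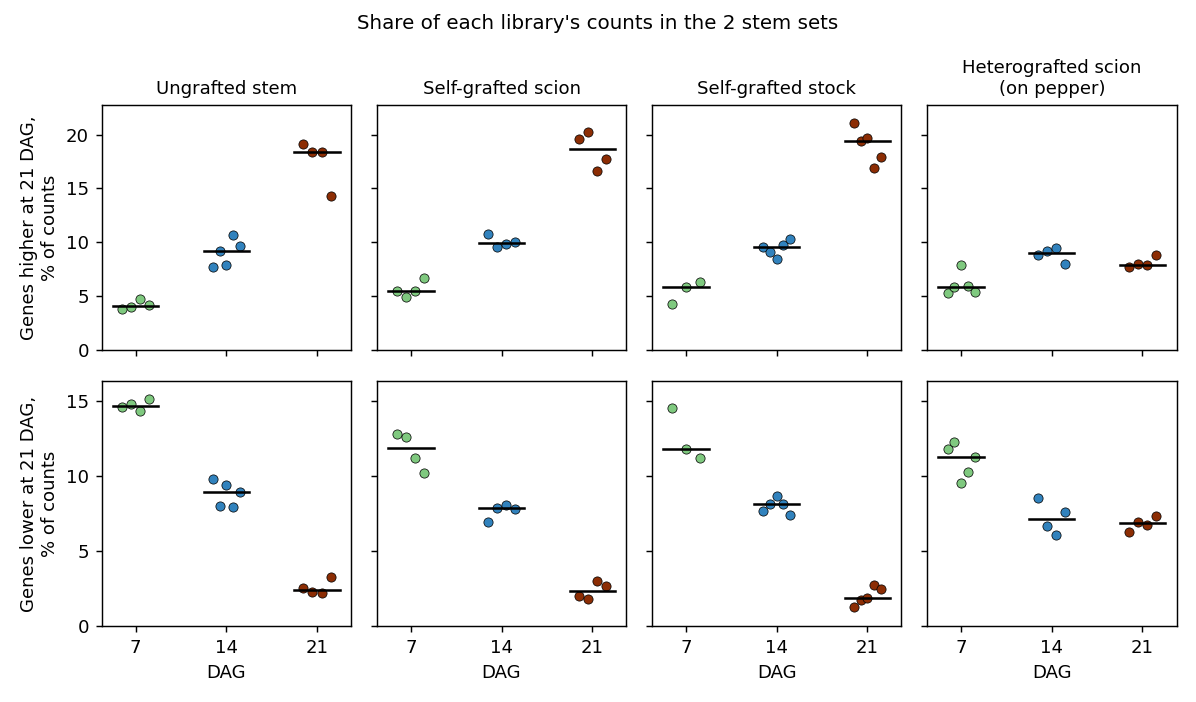
Percent of each library's counts that fell on the 832 genes higher (upper row) and the 890 genes lower (lower row) at 21 DAG in ungrafted stems, by DAG, with 1 point per library and a line at the median. The genes were chosen on the ungrafted libraries only; self-grafted scions and stocks of 21 DAG reach 16.6% to 21.1% in the upper row and at most 3.03% in the lower row, while heterografted scions of 21 DAG stay at 7.71% to 8.84% and at 6.26% to 7.33%.

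A direct test of the difference in ageing called few genes between self-grafts and ungrafted stems. A gene that was not called is not shown to age alike. In 1 fit of the 3 tissues, the change over 21 and 7 DAG in self-grafted scions differed from that in ungrafted stems in 200 genes (1.64% of those tested), 58 with a more positive and 142 with a more negative change in scions. For stocks there were 143 genes (1.17%), 18 more positive and 125 more negative. Of the more negative genes, 102 in scions and 92 in stocks were members of the stem's higher set. Both tests use the same ungrafted libraries, on which that set was chosen, so these counts are in part fixed by the choice. The tests depended on single libraries. Leaving out replicate 2 of the ungrafted stems of 21 DAG gave 37 and 74 genes for scions and 11 and 61 for stocks. Solyc05g015300 was among the differing genes. It was named for its rise in the ungrafted libraries, so its test is in part fixed by that choice. It rose in the ageing stem but had 22.8, 0, 0 and 43.4 CPM (in grafted tissues by library total, without TMM) in self-grafted scions of 21 DAG, against 36.5, 187.9, 336.1 and 54.9 in scions of 7 DAG, and its change differed between the tissues (adjusted p = 0.00716, edgeR). In self-grafted stocks it was higher at 21 DAG, with 17.9, 179.3, 36.1, 51.0 and 81.2 CPM, against 0, 0 and 24.8 CPM at 7 DAG (adjusted p = 0.0464, edgeR). Heterografted scions had 59.5, 32.6, 50.3 and 103.4 CPM at 21 DAG, against 0 counts in all 5 libraries of 7 DAG (adjusted p = 0.00196, edgeR). The difference from the change in the stem did not pass the test in stocks or in heterografted scions. Solyc11g044910 had 632.8, 534.6, 221.6 and 288.1 CPM in self-grafted scions of 21 DAG, against 0 counts in all 4 scions of 7 DAG, much as in the stem. Self-grafted stocks of 21 DAG had 181.3 to 744.7 CPM. Heterografted scions of 21 DAG had only 3.92, 5.53, 3.09 and 9.78 CPM, against 0 counts in all 5 libraries of 7 DAG. The difference from the change in the stem did not pass the test in any of these tissues.

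Tomato scions grafted on pepper were also read, since they share the variety and the harvest days. Of the 832 higher genes 99 were called higher in these heterografted scions (11.9%, against 2.39% of all genes tested there), and of the 890 lower genes 66 were called lower (7.42%, against 2.11% of all). These scions had 4 libraries at 21 DAG and 5 at 7 DAG. In the opposite direction, 36 of the higher genes were called lower there and 16 of the lower genes were called higher. Of the higher set 69.0% had a positive fold change, against 50.9% of all genes tested. Of the lower set 77.0% had a negative one, against 49% of all. The higher set held 7.71% to 8.84% of the counts at 21 DAG, against 5.35% to 7.94% at 7 DAG, and these ranges overlapped. The lower set held 6.26% to 7.33% at 21 DAG, against 9.54% to 12.3% at 7 DAG. At 14 DAG the shares were 8.03% to 9.52% and 6.10% to 8.51%. Ungrafted stems of 14 DAG held 7.73% to 10.7% and 7.92% to 9.78%. The higher set was thus within their range, and most shares of the lower set were below it. Tested directly, in a fit of ungrafted stems and heterografted scions added after the data were seen, the change over 21 and 7 DAG differed in 1316 genes (10.8% of those tested), 685 more positive and 631 more negative in heterografted scions. Members of the sets were chosen on ungrafted libraries that also enter this test, so its count within the sets is in part fixed by the choice.

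Single genes differed in the same comparison. Solyc05g053550, at 0 counts in all ungrafted stems of 21 DAG, had 5.48, 4.98, 4.85 and 9.78 CPM in heterografted scions of 21 DAG, against 55.4, 73.6, 24.02, 37.3 and 83.1 in heterografted scions of 7 DAG. Its change differed from that in the stem (adjusted p = 1.11e-05, edgeR). The gene was named for its fall in the ungrafted libraries, so this test is in part fixed by that choice. Self-grafted scions of 21 DAG had 0, 0, 2.94 and 0 CPM, and self-grafted stocks 1.91, 0, 5.69, 0 and 5.76 CPM. There the differences from the stem did not pass (adjusted p = 0.348 in scions and 0.190 in stocks, edgeR). The WRKY70 ortholog Solyc03g095770 had 75.2, 49.8, 64.4 and 90.4 CPM in heterografted scions of 21 DAG, against 28.5, 99.4, 188.0, 196.1 and 49.8 in those of 7 DAG. There its log2 fold change was -0.66 ± 0.49 (SE, adjusted p = 0.334, edgeR), and the difference from the rise in ungrafted stems was -3.81 on the log2 scale (adjusted p = 0.0069, edgeR). The gene did not pass the test in self-grafts either. Its log2 fold change was 0.91 ± 0.86 in scions (SE, adjusted p = 0.435, edgeR) and 0.87 ± 0.79 in stocks (SE, adjusted p = 0.383, edgeR). The differences from the stem were -2.29 in scions (adjusted p = 0.418, edgeR) and -2.36 in stocks (adjusted p = 0.458, edgeR) and did not pass.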

How the data were processed

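The authors purified RNA from stem pieces, built 3' end libraries (Lexogen QuantSeq FWD), trimmed the reads, aligned them with STAR 2.7.10b, counted them with StringTie on the ITAG4 tomato gene models and removed outlying libraries. They deposited raw counts per gene without normalization, which were used as deposited. SAMtools 1.18 and FastQC 0.12.1 are named in the submitters' processing notes. Reads come from transcript 3' ends, so levels are not per length and depend on the annotated ends. The pepper counts were not used here, and 0 columns of samples outside the series were present.

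As in the study's methods, a gene was kept if it averaged at least 10 counts and was at 0 in less than 75% of the 61 tomato libraries. The 22512 genes left out held 0.55% to 1.3% of the counts. The 13 ungrafted libraries were fitted together by age in R 4.3.3 with edgeR 4.0.16 (TMM, quasi-likelihood) and no covariates. Benjamini-Hochberg adjustment ran over all genes tested, and a call needed an adjusted p under 0.05 and a change of more than 1.5 log2 units. Standard errors were taken as the size of the log2 fold change divided by the root of F and are approximate. Each self-grafted or heterografted tissue was fitted on its own, and differences in ageing as an interaction, for self-grafts in 1 fit of 9 groups. The fit was tested on simulated data.

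The members, tests and gene rules were chosen with earlier results of these data known. The rule for named genes asked for a product name in the reference. No tomato identifier matched the reference table, so the 2 largest rises and 2 largest falls stand in, beside the 6 genes of the study's text; gene lists, cell type markers and promoter motifs were not analysed here, and no sequence is shown. The labels give no separate growth of replicates beyond calling them biological, and no batch. The closest pair of libraries differed by 5.4 times the sampling noise (chi-square per degree of freedom), so none was counted as a duplicate. Alternatives were DESeq2 1.42.0 (its size factors, and its Wald test), other filters, the replicate number as a block, other sets of libraries in the fit, other fold thresholds, thinned counts (seed 1) and each library left out.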

Additional observations from a re-analysis of the deposited data

Results flagged for a closer look

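By chance, Dixon's criterion flags about 1 in 20 independent groups, but the groups read here share libraries. Among 65 such groups of 4 or 5 libraries, 10 had a library far from the others by this criterion. Of these, 5 are replicate 5 of the ungrafted stems of 21 DAG, with 12319 genes with counts, a median rank correlation of 0.807 to its age, a score of 24.47 on the first and -107.8 on the second component, and 14.3% of its counts in the higher set. Replicate 3 of 7 DAG had a median rank correlation of 0.846 to its age. A heterografted scion of 7 DAG held 7.94% of its counts in the higher set, more than the others of its group. Single plants stood out for 3 genes. Solyc03g095770 had 67.7 CPM in 1 library of 21 DAG. Solyc03g118190 had 3.33 CPM in 1 library of 7 DAG and Solyc09g066080 had 2.28 CPM in 1 library of 14 DAG. For both of these the other libraries of that age held 0 counts.

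The change over 21 and 7 DAG differed from that of ungrafted stems in 200 genes in self-grafted scions, in 143 genes in self-grafted stocks and in 1316 genes in heterografted scions, by tests of the difference itself. Among named genes, Solyc05g015300 differed by a fitted -14.02 log2 units between self-grafted scions and ungrafted stems, Solyc05g053550 by 8.99 between heterografted scions and ungrafted stems, and Solyc03g095770 by -3.81 in the same comparison. The values of Solyc05g015300 and Solyc05g053550 rest on groups with 0 counts and have no fixed size. These genes were named for their changes in the ungrafted libraries, which also enter these tests.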

How the results depend on the processing

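The contrast of 21 over 7 DAG kept its direction for each named gene that was tested, under every alternative run for it; Solyc09g066080 was not tested. The call of Solyc03g095770 was lost with the replicate block (log2 fold change 3.55, adjusted p = 0.067), with only these ages in the fit (3.23, 0.0520) and with glmTreat (3.21, 0.0883), edgeR in each case, while the joint fit with self-grafted libraries gave 3.20 (0.00853) and DESeq2's Wald test 3.27 (0.00144). Replicate numbers did not pair the libraries, as deviations of same-numbered libraries correlated between -0.186 and 0.29.

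With the replicate number as a block, 509 genes were higher at 21 than 7 DAG, 32 higher and 33 lower at 14 than 7 DAG, 88 higher at 21 than 14 DAG, and 1927 passed at any age. The difference between steps then called 28 genes, and the interactions 34 and 86 genes higher and lower in scions and 11 and 72 in stocks. DESeq2's Wald test called 351 genes higher and 112 lower at 14 than 7 DAG, and the fit with self-grafted libraries 415 and 105, and 294 higher at 21 than 14 DAG. Without a fold threshold, the counts of higher and lower genes were 1947 and 1869 for 21 over 7 DAG, 364 and 236 for 14 over 7 DAG, 739 and 1119 for 21 over 14 DAG and 1137 and 1208 for the heterograft interaction, with 216 lower in scions and 30 higher in stocks. With glmTreat against 1 log2 unit, they were 456 higher for 21 over 7 DAG, 23 and 12 for 14 over 7 DAG and 46 and 197 for 21 over 14 DAG. The other 77 counts stayed within 1.5 times.

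With each library left out, 21 over 7 DAG gave 662 to 957 higher and 777 to 998 lower genes, 14 over 7 DAG 81 to 183 and 45 to 66, 21 over 14 DAG 109 to 213 and 368 to 557, and any age 2653 to 3596. Interactions gave 37 to 105 and 74 to 237 genes in self-grafted scions, 6 to 33 and 39 to 198 in stocks and 587 to 778 and 491 to 820 in heterografted scions. The scion interaction moved most without ungrafted replicates 1 of 7 DAG and 2 and 4 of 21 DAG and scion replicate 5 of 7 DAG, and the stock interaction without these ungrafted replicates, ungrafted replicates 3 and 5 of 7 DAG, stock replicates 2 and 5 of 7 DAG and stock replicates 3 and 5 of 21 DAG. Self-grafted scions on their own gave 815 to 1062 and 960 to 1226. Planned gene lists and promoter motifs were not run, since no table used here pairs tomato identifiers with names. The cause of these shifts was not tested. With counts thinned to the smallest library, 854 genes were higher and 928 lower at 21 than 7 DAG.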
